A study of Mus musculus with 27 samples.

Results

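The miR-379 to miR-410 cluster is a run of miRNA genes on mouse chromosome 12, inside the imprinted Dlk1-Dio3 domain. Its members were taken by position: every miRNA entry of the small RNA table whose start lay in a fixed window around the cluster on chromosome 12 of the GRCm38 genome. An entry is a line of the table, which holds either a hairpin or one mature arm of a hairpin (5p or 3p). The rule gave 49 of 1013 entries, and 49 of the 483 miRNA entries. They came from 34 hairpins, as 28 entries of 3p arms, 17 of 5p arms and 4 of whole hairpins (mir-494, mir-382, mir-485 and mir-377).

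Small RNA was sequenced from 3 cell types, each split into chromatin, soluble nucleoplasm and cytoplasm, with 3 libraries for each of the 9 combinations and 27 libraries in all. mCtx are primary mouse cortical neurons kept in culture for 5 days. mNPC is a neural progenitor line grown with EGF and FGF at 10 ng/ml, and mESC are E14 mouse embryonic stem cells kept on gelatin with LIF, so that each of these is represented by 1 line. None of the groups was given a further treatment or carried an engineered allele, per the labels. Libraries of one group are labelled as biological replicates, but nothing says whether separate cultures were used. What a p-value weighs is thus the scatter among libraries of a group, and that could be technical alone.

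An imprinted gene is read from only one of its parental copies. In the Dlk1-Dio3 domain the non-coding RNAs, among them this miRNA cluster, other miRNAs and a group of snoRNAs, are transcribed from the maternal copy, in one orientation and probably as long shared precursors. A hairpin is cut out of such a precursor in the nucleus, exported and trimmed to a duplex of both arms, of which one usually remains as the mature miRNA. The seed, bases 2 to 8 of the mature miRNA, is the part that pairs with target mRNAs. The cluster is known for its abundance in brain. Its member miR-134 is known to control the size of dendritic spines in mouse and rat hippocampal neurons.

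The 49 entries lay on the plus strand between positions 109709102 and 109743784, over 34.7 kb. In the GENCODE annotation, 28 of them lay upstream of the lincRNA gene Mirg (109729764 to 109749460), 9 overlapped a Mirg exon and 12 lay in Mirg introns. For 6 entries (miR-299a-3p, miR-380-3p, both arms of miR-376a and both arms of miR-409) a miRNA gene is also annotated on the opposite strand.

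The mature sequences below, 5′ to 3′ with the seed in capitals, are those of the 4 most abundant entries, of further entries described below, and of pairs that nearly share a sequence. They come from the RefSeq annotation of GRCm38.p6, which held a mature sequence for 42 of the 49 entries.
miR-411-5p: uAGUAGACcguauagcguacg
miR-541-5p: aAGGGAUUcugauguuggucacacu
miR-410-3p: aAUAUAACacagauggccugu
miR-381-3p: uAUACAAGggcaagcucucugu
miR-300-3p: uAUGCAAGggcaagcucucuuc
miR-758-3p: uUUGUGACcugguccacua
miR-134-5p: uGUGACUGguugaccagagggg
miR-379-3p: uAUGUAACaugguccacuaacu
miR-411-3p: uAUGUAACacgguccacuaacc
miR-376b-3p: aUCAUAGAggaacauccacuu
miR-376a-3p: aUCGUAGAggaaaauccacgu
miR-369-5p: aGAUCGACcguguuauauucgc
miR-369-3p: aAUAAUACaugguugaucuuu

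Of these, miR-379-3p and miR-411-3p had the same seed, and no other pair among the 42 sequences did. miR-411-3p differed from miR-379-3p by C10U and C22U, counted from the 5′ end with the base of the first-named miRNA first. miR-300-3p differed from miR-381-3p at 3 of 22 bases (G4A, U21G and C22U), and miR-376a-3p from miR-376b-3p at 3 of 21 (G4A, A13C and G20U), in each case with 1 difference inside the seed. How reads that fit both members of such a pair were divided is not given in the sources used here, so the values of these pairs may not be independent.

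The letters GGUNNAC (N is any base), looked for on the mature strand only, were chosen after the sequences had been read. They occurred in 11 of 26 3p arms of the cluster (42.3%) and in 2 of 16 5p arms (12.5%). They occurred in 35 of all 1679 mature mouse miRNAs of RefSeq (2.08%), and in 22 of the 1637 outside the cluster (1.34%). In 10 of these 11 arms they began at base 11, as in miR-379-3p, miR-411-3p and miR-758-3p above.

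Values are RPM, reads per 1000000 reads as scaled by the authors. In each library everything under a lowest listed value was given as 0. That value was 5.16 to 25.11 RPM in mCtx, 22.49 to 59.07 RPM in mNPC and 15.69 to 54.80 RPM in mESC libraries, so that a 0 says only that an entry was below it. The depth of the libraries is not given. In 25 of the 27 libraries, between 48.6% and 59.4% of the values above 0 were whole multiples of the lowest value divided by 10, within 0.02. If the lowest value stood for 10 reads, those libraries would have held between 169301 and 1937609 reads. Too few values came out whole for reads to be recovered, and no counting interval is given. RPM is a share of a library and not an amount per cell, and fewer cells of a type cannot be told apart from less RNA per cell. Pearson's r between libraries of one group was 0.818 to 0.969 over the 851 entries tested, on the log2(RPM + 1) scale.

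Known markers were checked by summed level. The entries of the miR-290 to miR-295 cluster, which mark mouse embryonic stem cells, were at 0 in every mCtx and mNPC library and summed to 19861 RPM or more in every mESC library. The neuronal miR-124 entries summed to between 1001 and 4623 RPM in mCtx libraries, were at 0 in mNPC, and reached at most 109 RPM in mESC. No list marked mNPC alone: the miR-9 entries, known from neural progenitors, summed to between 45438 and 139590 RPM in mCtx, 34835 and 110310 RPM in mNPC, and 0 and 752 RPM in mESC libraries. A further list of 12 progenitor entries summed to between 43556 and 65858 RPM in mCtx and 55085 and 132060 RPM in mNPC libraries. A list of 9 entries known from endothelium and mesenchyme moved with the cluster: it summed to between 2192 and 4158 RPM in mCtx, 112 and 345 RPM in mNPC, and 949 and 7629 RPM in mESC libraries. Between 2 and 8 of its 9 entries were above 0 in a group, and its part in the results below was not tested.

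The cluster was near or at 0 in every mNPC library and abundant in both mCtx and mESC. Of the 49 entries, 40 were above 0 in at least 1 mCtx library, 2 in at least 1 mNPC library and 46 in at least 1 mESC library. In mCtx 13 entries, and in mESC 13, were above 0 in all 9 libraries of the cell type.

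Summed over the 49 entries, mCtx libraries held 16992, 20958 and 19080 RPM in chromatin, 28427, 28318 and 33220 RPM in nucleoplasm, and 49514, 31083 and 35168 RPM in cytoplasm. The mNPC libraries held 136, 0 and 0 RPM in chromatin, 135, 95.2 and 0 RPM in nucleoplasm, and 96.7, 98.8 and 0 RPM in cytoplasm. In mESC the sums were 12691, 16085 and 18790 RPM in chromatin, 44731, 67280 and 59706 RPM in nucleoplasm, and 40870, 67411 and 64105 RPM in cytoplasm. No mCtx or mESC library came near an mNPC library. As a share of all reads listed for miRNAs, the cluster made up 2.88% to 5.70% in mCtx libraries, 0% to 0.0216% in mNPC libraries and 5.56% to 10.0% in mESC libraries, so that the mCtx and mESC ranges met only at their ends.

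**Figure D1:**
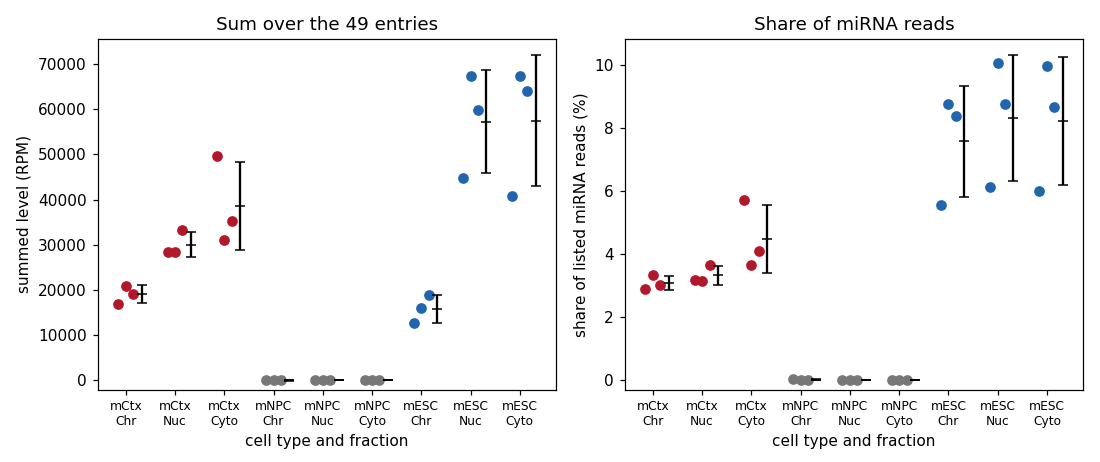
Left, summed level of the 49 entries of the cluster (RPM) by cell type and fraction; right, the same sum as a percentage of all listed miRNA reads. Each point is 1 library and the bar beside it is the mean ± SD (n = 3); the mNPC libraries lie at 0 to 136 RPM, the others at 12691 RPM or more.

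The 2 entries seen in mNPC were miR-411-5p and miR-541-5p. miR-411-5p had 61.7, 0 and 0 RPM in mNPC chromatin, 103, 51.0 and 0 RPM in nucleoplasm, and 65.2, 98.8 and 0 RPM in cytoplasm. miR-541-5p was above 0 in 4 of the 9 mNPC libraries, at between 31.3 and 74.7 RPM. Both are among the 4 most abundant entries of the cluster elsewhere, with at least 1837 RPM in every mCtx and mESC library. miR-410-3p and miR-381-3p, the other two of those 4, were listed at 0 in all 9 mNPC libraries.

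Single entries were compared with limma on log2(RPM + 1), with p-values adjusted over all 851 tested entries (Benjamini-Hochberg) and a call at an adjusted p under 0.05. Of the 49 entries, 41 had at least 1 RPM in at least 3 libraries and were tested. The other 8 (miR-299a-3p, mir-494, miR-300-5p, mir-382, mir-485, miR-154-3p, mir-377 and miR-410-5p) were above 0 in 1 or 2 libraries each.

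In mCtx nucleoplasm 36 of the 41 tested entries were higher than in mNPC nucleoplasm and none was lower. Among all 851 entries 23.5% were called higher in that comparison and 33.8% in either direction, and among the 418 miRNA entries 34.2% and 46.2%. In cytoplasm 31 were higher and none lower. There 21.5% of all entries were higher and 32.3% called either way, and 28.5% and 46.4% of the miRNA entries. In chromatin 17 were higher and none lower, beside 16% and 27.8% of all entries and 21.3% and 33.3% of the miRNA entries. Most of these calls, 34, 29 and 15, were of entries at 0 in all 3 mNPC libraries, for which no fold is given. Such entries could not be lower in mCtx, and they passed the filter only through mCtx or mESC libraries. That none was lower is thus no result for them. The median log2 difference of the 41 entries was 5.23 in nucleoplasm, 4.98 in cytoplasm and 1.61 in chromatin, each beside 0.00 over all entries. With values under 59.07 RPM set to 0 in all libraries, 17 entries remained called in nucleoplasm and 15 in cytoplasm.

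miR-410-3p, the last arm of the cluster, had 5760, 6621 and 5865 RPM in mCtx chromatin, 9213, 9538 and 10806 RPM in nucleoplasm and 25001, 14925 and 15583 RPM in cytoplasm, against 0 in every mNPC library. It was called higher in each fraction, with a limma adjusted p of 3.08e-21 in chromatin, 2.20e-21 in nucleoplasm and 6.42e-22 in cytoplasm. miR-411-5p, the highest entry in 2 of the 3 mCtx chromatin libraries, was also called in each, with adjusted p of 3.25e-05, 0.000211 and 0.000408 in the same order.

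Set against mESC, mNPC was lower for 17 of 41 entries in chromatin, 31 in nucleoplasm and 27 in cytoplasm, and higher for none. Entries at 0 in mNPC could not have been higher there. Among all entries 29%, 35.8% and 27.5% were lower in the same fractions, and 44.9%, 48.6% and 41.6% were called either way. Of the miRNA entries 44.3%, 58.4% and 56.2% were called either way. The median log2 difference of the 41 entries was 0.00 in chromatin, where 21 of them were at 0 in both groups, -6.90 in nucleoplasm and -6.87 in cytoplasm. In all entries the medians were 0.00, -1.20 and 0.00. miR-541-5p, for example, was lower in mNPC with a limma adjusted p of 4.51e-06 in chromatin, 3.07e-06 in nucleoplasm and 3.53e-07 in cytoplasm. The mCtx and the mESC comparison share the mNPC libraries.

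**Figure D2:**
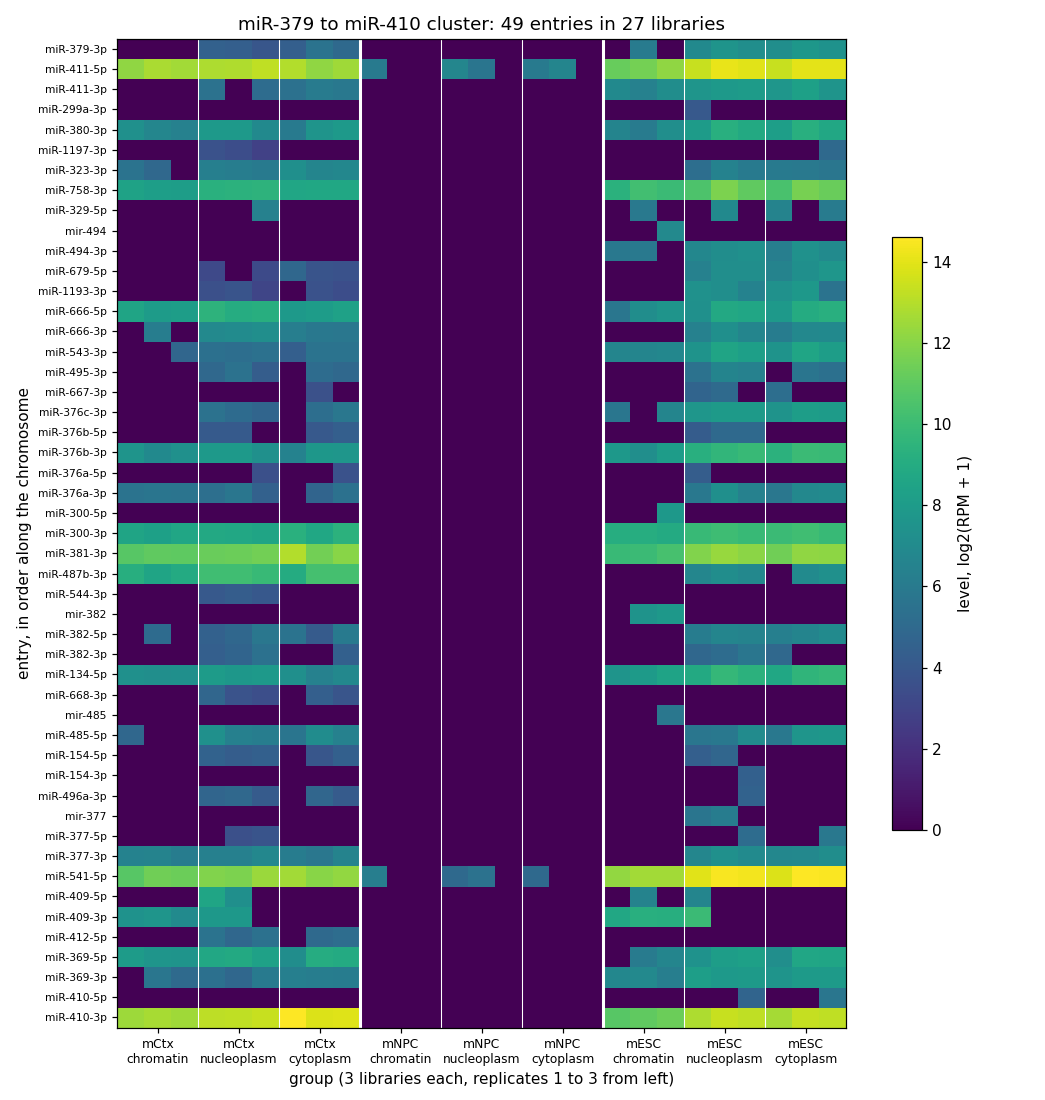
Level of each of the 49 entries (rows, in order along the chromosome) in each of the 27 libraries (columns, 3 per cell type and fraction), as log2(RPM + 1). The mNPC columns are at 0 except for miR-411-5p and miR-541-5p, and the same 4 rows are brightest in mCtx and mESC.

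The cluster's 4 most abundant entries, miR-411-5p, miR-541-5p, miR-410-3p and miR-381-3p, made up between 76.6% and 94.3% of its sum in every mCtx and mESC library. Their order differed between these cell types. miR-410-3p led in mCtx nucleoplasm and cytoplasm, and miR-541-5p led in every mESC library. A share of the cluster's sum does not depend on how a library is scaled. Shares are parts of the same sum, however, so that a fall of one entry raises the shares of the others.

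miR-410-3p took 33.9%, 31.6% and 30.7% of the cluster in mCtx chromatin. It took 32.4%, 33.7% and 32.5% in mCtx nucleoplasm and 50.5%, 48.0% and 44.3% in mCtx cytoplasm. In mESC chromatin it took 14.5%, 12.9% and 13.7%. The nucleoplasm libraries of mESC gave 16.4%, 15.9% and 16.2%, and their cytoplasm libraries 15.7%, 15.7% and 14.7%. The groups did not overlap in any fraction. The mCtx share was higher by 22.4 percentage points, averaged over the 3 fractions.

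For miR-541-5p the picture was the reverse. Its shares were 10.8%, 13.3% and 13.4% in mCtx chromatin. They were 12.9%, 12.3% and 16.8% in mCtx nucleoplasm and 12.3%, 13.7% and 13.9% in mCtx cytoplasm, so that no fraction of mCtx passed 16.8%. They were 38.7%, 38.4% and 32.7% in mESC chromatin. Those of mESC nucleoplasm were 35.4%, 34% and 35.3%, and those of mESC cytoplasm 36.2%, 37.4% and 37.2%. Every mCtx library lay below every mESC library, with a difference of -22.9 points.

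These 2 shares, those of the other 10 most abundant entries and the arm share of miR-369 were compared by a two-sided exact permutation test of mCtx and mESC labels within each fraction, chosen after the data had been seen. It has 8000 assignments, 13 tests and a smallest possible p of 0.00025, or 0.000464 after Benjamini-Hochberg adjustment. Shares of the same sum depend on each other, so their tests are not separate results. The labels of each fraction were permuted independently of the other fractions. If fractions of one number share a culture, which the labels do not say, the fractions are not independent and these p-values are too small. Both miR-410-3p and miR-541-5p reached that smallest value.

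miR-381-3p, miR-758-3p, miR-487b-3p and miR-134-5p reached it too. miR-381-3p averaged 10.7% ± 0.349, 8.95% ± 0.0645 and 12.3% ± 3.24 of the cluster in mCtx chromatin, nucleoplasm and cytoplasm, against 6.91% ± 0.566, 7.77% ± 0.479 and 6.93% ± 0.087 in mESC (SD, n = 3 each), a difference of 3.44 points. miR-758-3p averaged 1.63% ± 0.333, 2.24% ± 0.154 and 1.11% ± 0.269 in mCtx and 5.85% ± 1.19, 4.02% ± 1.00 and 3.98% ± 0.644 in mESC, a difference of -2.96 points. miR-487b-3p averaged between 2.57% and 3.62% of the cluster in the mCtx fractions and between 0% and 0.211% in those of mESC, a difference of 2.92 points.

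miR-134-5p averaged 0.819% ± 0.132, 0.791% ± 0.105 and 0.301% ± 0.0226 in mCtx, against 1.64% ± 0.205, 1.15% ± 0.116 and 1.15% ± 0.157 in mESC, a difference of -0.675 points. The other differences with an adjusted p under 0.05 were -0.743 points for miR-376b-3p (adjusted exact permutation p = 0.000813), 0.793 for miR-369-5p (0.00144), 0.768 for miR-666-5p (0.0052) and -0.74 for miR-300-3p (0.0109). For miR-411-5p the difference of 0.737 points (adjusted exact permutation p = 0.766) was positive in chromatin and nucleoplasm and negative in cytoplasm. miR-380-3p differed by -0.126 points (adjusted exact permutation p = 0.269).

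**Figure D3:**
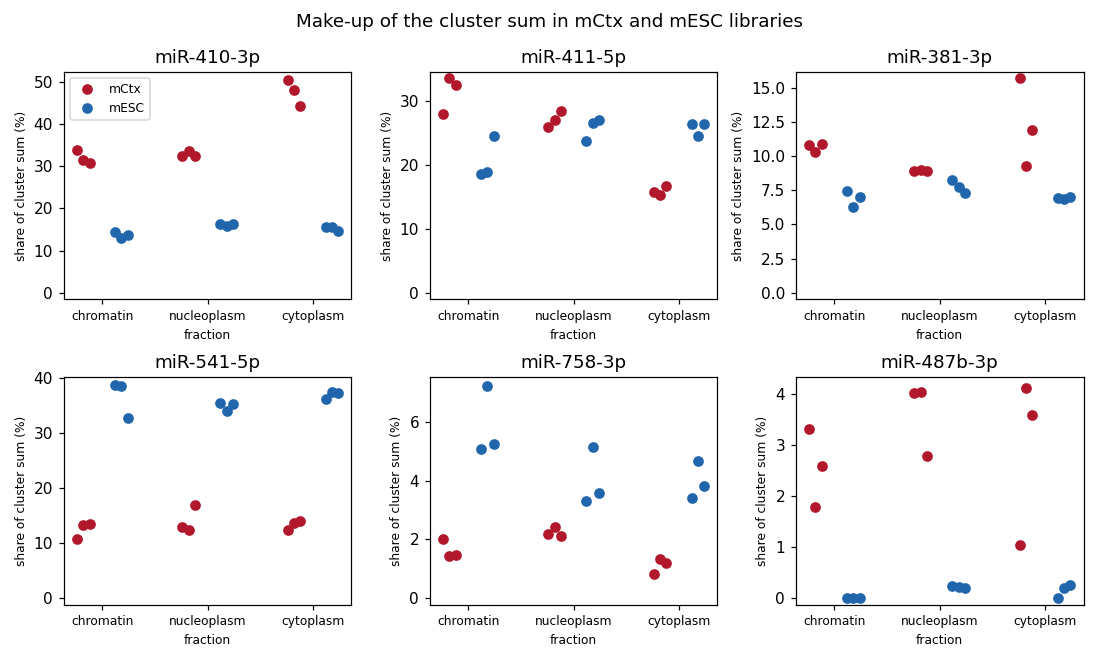
Share of 6 entries in the cluster's summed RPM (%), by fraction, with 1 point per library (red mCtx, blue mESC). The mCtx points lie above the mESC points in every fraction for miR-410-3p, miR-381-3p and miR-487b-3p and below them for miR-541-5p and miR-758-3p; those of miR-411-5p cross.

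Levels in RPM were compared entry by entry. In chromatin 8 of 41 entries were higher and 7 lower in mCtx than in mESC, in nucleoplasm 6 were higher and 14 lower, and in cytoplasm 7 were higher and 13 lower. Among all 851 entries, chromatin had 22.8% higher and 29.3% lower, nucleoplasm 20.9% and 31.3%, and cytoplasm 21% and 24.4%. The cluster's share of calls in either direction was 36.6% in chromatin, 48.8% in nucleoplasm and 48.8% in cytoplasm, beside 52.1%, 52.2% and 45.5% of all entries and 50.2%, 62.9% and 60.8% of miRNA entries. Among the miRNA entries, chromatin had 34.9% higher and 15.3% lower, nucleoplasm 34.2% and 28.7%, and cytoplasm 33.3% and 27.5%. The cluster's median log2 differences were 0.00, -0.71 and -0.79, beside 0.00, -0.45 and 0.00.

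The split between higher and lower depended on the scaling. The miRNA entries together took between 589985 and 631680 RPM in mCtx chromatin, but only 183544 to 228221 RPM in mESC chromatin. The shift of a scaling is given as the difference between the mean log2 scaling factors of the groups compared, and an entry at 0 stays at 0. With each library scaled to its miRNA entries alone, a shift of -1.55, 4 entries were higher and 11 lower in chromatin. With libraries centred on the 106 entries above 0 in all 27, a shift of 1.27, 10 were higher and 5 lower in nucleoplasm. With values under 59.07 RPM set to 0, 1 was higher and 16 lower in nucleoplasm, and 2 and 16 in cytoplasm.

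miR-410-3p averaged 6082 ± 469 RPM in mCtx chromatin and 2165 ± 375.8 RPM in mESC chromatin, and 18500 ± 5640 and 8809 ± 2140 RPM in cytoplasm (SD, n = 3 each). The log2 differences were 1.50 ± 0.20 (SE, adjusted p = 2.17e-06) in chromatin and 1.06 ± 0.20 (adjusted p = 0.000176) in cytoplasm. In chromatin the difference was -0.045 with scaling to the miRNA entries. In nucleoplasm it had 9213, 9538 and 10806 RPM in mCtx against 7319, 10697 and 9692 RPM in mESC, and the groups overlapped. Its larger mCtx share in nucleoplasm thus came without a clear difference in its level. There miR-541-5p averaged 4244 ± 1171 RPM in mCtx and 19930 ± 3657 RPM in mESC (SD, n = 3 each).

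miR-758-3p had 342, 298 and 279 RPM in mCtx chromatin against 646, 1161 and 986 RPM in mESC chromatin. In nucleoplasm it had 627, 683 and 701 RPM in mCtx against 1476, 3475 and 2152 RPM in mESC, and in cytoplasm 404, 417 and 415 RPM against 1400, 3158 and 2449 RPM. It was lower in mCtx in each fraction, with log2 differences of -1.56 ± 0.30, -1.73 ± 0.30 and -2.42 ± 0.30 (SE, limma adjusted p of 0.000125, 4.42e-05 and 7.24e-07). With centred libraries only the cytoplasm difference stayed called, and the adjusted p was 0.0828 in chromatin and 0.352 in nucleoplasm.

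miR-134-5p, the spine regulator, had at most 163 RPM in the mCtx chromatin libraries, against 187, 253 and 351 RPM in mESC chromatin. The groups did not overlap, but it was not called there (limma adjusted p = 0.0504). In mCtx nucleoplasm it had 258, 217 and 233 RPM against 464, 855 and 679 RPM in mESC nucleoplasm, and in mCtx cytoplasm 153, 85.7 and 112 RPM against 413, 756 and 847 RPM in mESC cytoplasm. It was lower in mCtx, with a log2 difference of -1.45 ± 0.30 in nucleoplasm (adjusted p = 0.00035, or 0.791 with centred libraries) and of -2.49 ± 0.30 in cytoplasm (adjusted p = 6.38e-07).

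miR-487b-3p went the other way. It had 564, 375 and 494.6 RPM in mCtx chromatin, where all 3 mESC libraries were listed at 0 (adjusted p = 1.05e-06). In nucleoplasm it had 1144, 1148 and 924 RPM in mCtx against 103.5, 143.8 and 112 RPM in mESC (log2 difference 3.16 ± 1.13, adjusted p = 0.0236). In cytoplasm it had 519, 1283 and 1263 RPM in mCtx against 0, 127 and 161 RPM in mESC (adjusted p = 0.000798). The nucleoplasm call was lost without any one of mCtx nucleoplasm replicates 1 and 2 and mESC nucleoplasm replicates 1 and 3, with adjusted p between 0.0522 and 0.0553.

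miR-541-5p and miR-411-5p were not called between mCtx and mESC in any fraction. The fit takes 1 spread per entry over all 27 libraries, and both entries were above 0 in some mNPC libraries and at 0 in others. In a fit of the 18 mCtx and mESC libraries alone, tried after the data had been seen, miR-541-5p was lower in mCtx, with log2 differences of -1.28 ± 0.25 in chromatin, -2.25 ± 0.25 in nucleoplasm and -2.05 ± 0.25 in cytoplasm (SE, limma adjusted p of 0.000603, 3.57e-06 and 1.10e-05). miR-411-5p was higher in chromatin, with a log2 difference of 0.88 ± 0.28, and lower in nucleoplasm and cytoplasm, with -0.84 ± 0.28 and -1.26 ± 0.28 (adjusted p of 0.0177, 0.023 and 0.00222). With scaling to miRNA entries the chromatin difference of miR-411-5p was -0.662 in the fit of all 27 libraries. For the other tested entries all mNPC libraries were at 0, and this lack of scatter can make their spread too small. For miR-487b-3p the chromatin SE was 1.13 with all 27 libraries and 1.36 with the 18, for miR-300-3p 0.20 and 0.18. With the 18 libraries 16 entries rather than 22 were called between mCtx chromatin and cytoplasm. Between mCtx and mESC 17 rather than 15 were called in chromatin, 17 rather than 20 in nucleoplasm and 18 rather than 20 in cytoplasm.

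miR-376b-3p, which nearly shares its sequence with miR-376a-3p, had 228, 235 and 161 RPM in mCtx nucleoplasm against 608, 790 and 913 RPM in mESC nucleoplasm. In cytoplasm it had 87.6, 213 and 206 RPM in mCtx against 676, 983 and 960 RPM in mESC. It was lower in mCtx in both, with log2 differences of -1.89 ± 0.32 and -2.45 ± 0.32 (SE, limma adjusted p of 4.30e-05 and 1.85e-06), and the nucleoplasm call was lost with centred libraries. In chromatin the groups overlapped.

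miR-300-3p, the near copy of miR-381-3p, had 453, 430 and 367.2 RPM in mCtx nucleoplasm against 918, 1103 and 911 RPM in mESC nucleoplasm (log2 difference -1.23 ± 0.20, adjusted p = 3.35e-05, or 0.044 as the difference with centred libraries). In cytoplasm it had 620, 424 and 686 RPM in mCtx against 1004, 1142 and 930 RPM in mESC (-0.85 ± 0.20, adjusted p = 0.00162). The groups overlapped in neither. miR-381-3p itself was higher in mCtx chromatin, with 1836, 2150 and 2081 RPM against 943, 1014 and 1315 RPM in mESC chromatin (0.90 ± 0.26, adjusted p = 0.00672, or -0.644 as the difference with scaling to miRNA entries).

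Some entries were at 0 throughout one of these cell types. miR-494-3p was at 0 in all 9 mCtx libraries. In mESC it had 57.4, 58.7 and 0 RPM in chromatin, 107, 143.8 and 159 RPM in nucleoplasm, and 74.4, 166 and 125.9 RPM in cytoplasm. It was called lower in mCtx in each fraction (limma adjusted p of 0.00123, 1.86e-06 and 2.86e-06), and mESC chromatin replicate 3 was at 0 as well; the chromatin call was lost with values under 59.07 RPM set to 0. The other way round, 3 entries were above 0 in mCtx and at 0 in all mESC libraries, namely miR-544-3p, miR-668-3p and miR-412-5p. None of them passed 47.2 RPM in a library, and the lowest listed value of mESC libraries was up to 54.80 RPM.

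**Figure D4:**
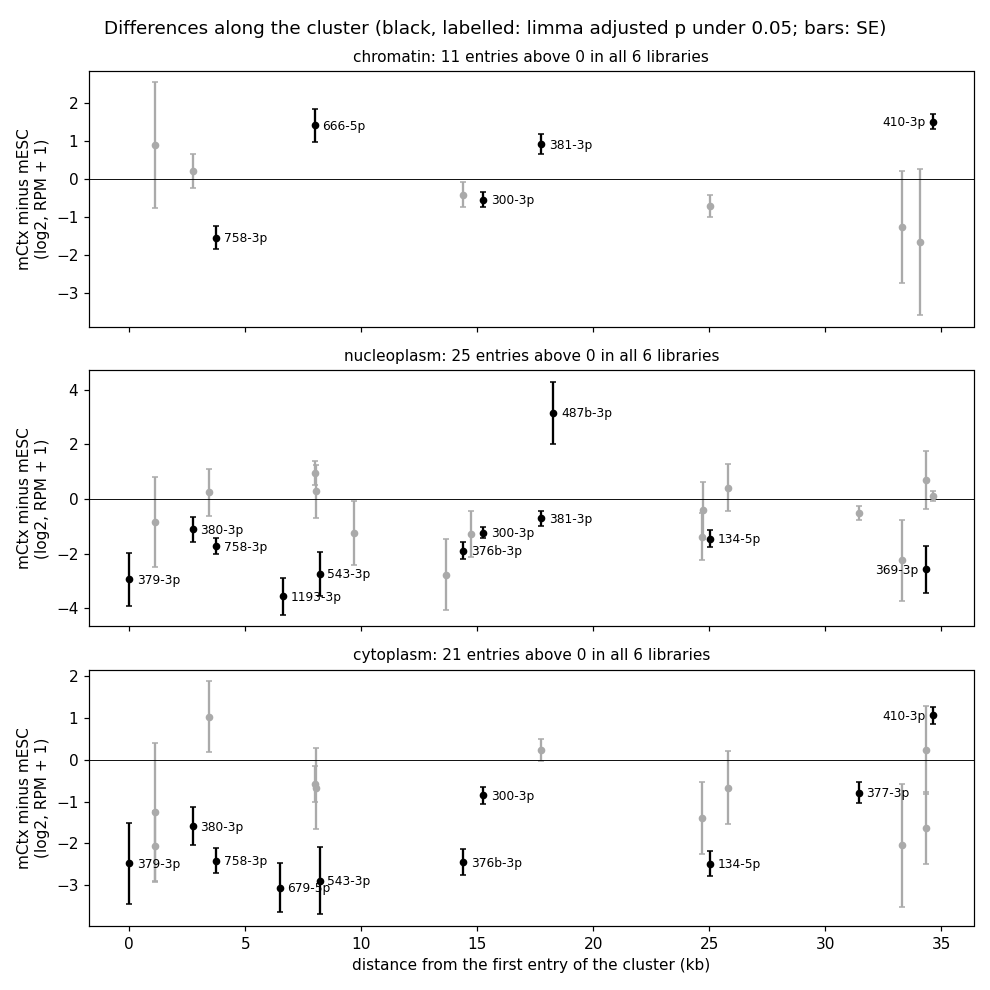
Log2 difference between mCtx and mESC (log2(RPM + 1), mCtx minus mESC, bars SE) against the distance of an entry from the first entry of the cluster (kb), for the entries above 0 in all 6 libraries of a fraction. Black and labelled points have a limma adjusted p under 0.05; of these, chromatin has 3 higher and 2 lower, nucleoplasm 1 higher and 10 lower, and cytoplasm 1 higher and 9 lower.

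The arms of the miR-369 hairpin stood in different proportions in mCtx and mESC. miR-369-5p had 255, 200 and 188 RPM in mCtx chromatin, 435, 463 and 332 RPM in nucleoplasm and 143.5, 531 and 485.3 RPM in cytoplasm. miR-369-3p had 0, 51.7 and 32.6 RPM in mCtx chromatin, 41.7, 28.6 and 64.5 RPM in nucleoplasm and 78.3, 71.7 and 69.7 RPM in cytoplasm. The 5p arm was the higher one in all 9 mCtx libraries. In mESC the 5p arm had 0, 67.8 and 98.6 RPM in chromatin, 176, 282 and 321 RPM in nucleoplasm, and 146.02, 403 and 380.95 RPM in cytoplasm. The mESC 3p arm had 110, 117 and 76.7 RPM, 292, 236 and 252 RPM, and 187, 250 and 252 RPM in the same fractions.

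The 3p arm thus made up 11.8% ± 10.6 of both arms in mCtx chromatin, 10.3% ± 5.38 in nucleoplasm and 19.9% ± 13.3 in cytoplasm. In mESC it made up 69.1% ± 28.5, 50.7% ± 10.2 and 44.8% ± 9.92 in the same order (SD, n = 3 each). The difference was -40.8 points (adjusted exact permutation p = 0.000464, the smallest possible). No mCtx library reached an mESC library of its own fraction, but in cytoplasm the nearest were at 35.3% and 38.3%. In chromatin, mCtx replicate 1 was at 0% because its 3p arm was under the lowest listed value of 23.6 RPM. There mESC replicate 1 was at 100% because its 5p arm was under 47.9 RPM, so these means are partly set by that limit. The 5p arm was higher in mCtx chromatin (adjusted p = 0.00838), and the 3p arm lower in chromatin (adjusted p = 0.0051) and nucleoplasm (adjusted p = 0.0168), all by limma. The nucleoplasm call was lost without mCtx nucleoplasm replicate 2 (adjusted p = 0.061).

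**Figure D5:**
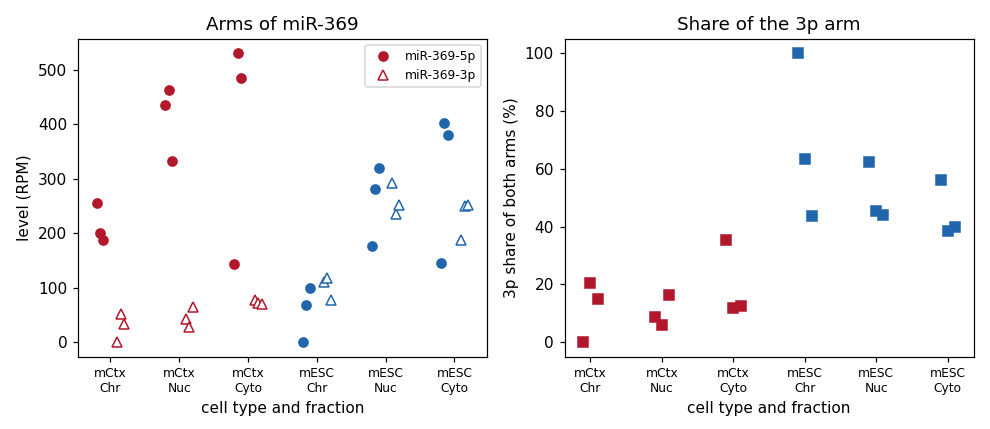
Left, level of miR-369-5p (filled circles) and miR-369-3p (open triangles) in RPM; right, the 3p arm as a percentage of both arms, by cell type and fraction, with 1 point per library (red mCtx, blue mESC). The 3p share is 0% to 35.3% in mCtx libraries and 38.3% to 100% in mESC libraries.

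The arms of miR-376b and miR-666 kept one order. miR-376b-3p averaged 94.6% or more of both arms in each mCtx and mESC fraction. miR-666-5p led miR-666-3p in all of them, the 3p arm averaging between 0% and 26.4% of both. At such low levels of the lesser arm, values under the lowest listed value set part of these shares.

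The fractions were compared within each cell type. In mCtx, chromatin was lower than cytoplasm for 20 of 41 entries and higher for 2 (among all entries 23.9% were lower and 20.2% higher), and lower than nucleoplasm for 22 and higher for none (17.2% of all lower). In mESC, chromatin was lower than cytoplasm for 22 entries and higher for 1 (29.5% and 24.9% of all), and lower than nucleoplasm for 26 and higher for 1 (30.9% and 19.9%). The median log2 differences of the 41 entries were -1.20 and -2.17 in mCtx and -1.87 and -2.07 in mESC, each beside 0.00 over all entries. In a fit of the 18 mCtx and mESC libraries alone, miR-411-5p and miR-541-5p were lower in mESC chromatin than in mESC cytoplasm, with log2 differences of -2.17 ± 0.28 and -1.86 ± 0.25 (SE, limma). miR-541-5p was also lower in mCtx chromatin than in mCtx cytoplasm, with -1.09 ± 0.25. In mNPC none was called by limma in any comparison of fractions (38.8% of all entries were called between chromatin and cytoplasm), and none had an unadjusted p under 0.05. There 39 of the 41 tested entries were at 0 in both fractions.

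Among the 418 miRNA entries, 25.4% were lower in chromatin than in cytoplasm in mCtx and 46.7% in mESC, and 26.3% and 51.4% were lower than in nucleoplasm. Many calls between chromatin and cytoplasm were of entries at 0 in all 3 libraries of one of these fractions, 12 of the 22 in mCtx and 11 of the 23 in mESC. Of the 13 entries above 0 in all 6 libraries, chromatin was lower than cytoplasm for 3 in mCtx and for 8 in mESC, and higher for none. With values under 59.07 RPM set to 0, the mCtx comparison of chromatin with cytoplasm had 1 higher and 5 lower, and that with nucleoplasm 6 lower. With centred libraries, a shift of 1.60, the mCtx comparison with cytoplasm had 9 higher and 15 lower. Scaling to miRNA entries, a shift of 1.73 in mESC, left 2 higher and 11 lower there.

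miR-410-3p averaged 6082 ± 469 RPM in mCtx chromatin against 18500 ± 5640 RPM in mCtx cytoplasm (log2 difference -1.57 ± 0.20, adjusted p = 1.72e-06), but the difference was 0.037 with centred libraries. In mESC it averaged 2165 ± 375.8 RPM in chromatin against 8809 ± 2140 RPM in cytoplasm (-2.01 ± 0.20, adjusted p = 4.30e-08, or 0.323 with scaling to miRNA entries). miR-381-3p averaged 1091 ± 198 RPM in mESC chromatin against 3984 ± 1010 RPM in mESC cytoplasm (-1.85 ± 0.26, adjusted p = 4.45e-06, or 0.905 with that scaling).

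Fewer entries were called between nucleoplasm and cytoplasm. In mCtx 5 entries were higher and 3 lower in nucleoplasm (13.5% and 11.8% of all entries), and in mESC 3 were higher and none lower (14% of all higher). The mCtx count of 8 was 5 without mCtx nucleoplasm replicate 2 and 4 without mCtx cytoplasm replicate 1. With centred libraries, a shift of 1.24, 18 were higher and none lower. With values under 59.07 RPM set to 0, 3 were higher and 3 lower. mCtx cytoplasm replicate 1 stood apart for the leading entries, with 25001 RPM of miR-410-3p and 7783 RPM of miR-381-3p, against 14925 and 15583 RPM and 2880 and 4202 RPM in the other two. miR-544-3p had 16.0, 18.6 and 15.5 RPM in mCtx nucleoplasm and was at 0 in the other 24 libraries.

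miR-409-3p was the one entry called higher in chromatin than in cytoplasm in both mCtx and mESC. It had 177, 198 and 128.05 RPM in mCtx chromatin, 221, 218.3 and 0 RPM in mCtx nucleoplasm, and 0 in all mCtx cytoplasm libraries. In mESC it had 435, 601 and 564 RPM in chromatin, 996, 0 and 0 RPM in nucleoplasm, and again 0 in all cytoplasm libraries. The limma adjusted p was 0.00355 in mCtx and 0.000459 in mESC. The other entry higher in mCtx chromatin was miR-376a-3p, with 47.2, 49.9 and 47.7 RPM in chromatin against 0, 25.1 and 42.8 RPM in cytoplasm (adjusted p = 0.039). That call was lost without any one of the 3 mCtx chromatin libraries or mCtx cytoplasm replicate 1. The other arm of the miR-409 hairpin, miR-409-5p, had 380, 157 and 0 RPM in mCtx nucleoplasm and 0, 90.4 and 0 RPM in mESC chromatin. It had 98.8, 0 and 0 RPM in mESC nucleoplasm, and 0 elsewhere. A miRNA gene is annotated on the opposite strand at this hairpin, and whether reads were counted by strand is not given in the sources used here.

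The hairpin entries were above 0 only in mESC chromatin and nucleoplasm. mir-382 had 0, 181 and 225 RPM in mESC chromatin, where both arms of miR-382 were at 0. mir-494 and mir-485 had 115 and 54.8 RPM in mESC chromatin replicate 3 alone, where miR-494-3p and miR-485-5p were at 0. mir-377 had 50.2, 70.5 and 0 RPM in mESC nucleoplasm, beside 103.5, 163 and 125.9 RPM of miR-377-3p. With 1 to 2 libraries above 0 each, none of these was tested.

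miR-377-3p differed between the chromatin fractions of the cell types. It had 87.4, 90.6 and 70.3 RPM in mCtx chromatin, against 0 in all 3 mESC chromatin libraries (limma adjusted p = 2.32e-15). Those 3 libraries listed nothing under 47.9, 45.2 and 54.8 RPM. The size of this difference is thus not known, and its p rests on taking each 0 as 0 RPM. The miRNA entries also took fewer RPM in mESC chromatin, and scaling to them leaves a 0 at 0. In cytoplasm it had 70.8, 54.0 and 90.7 RPM in mCtx against 110, 115 and 144.8 RPM in mESC (log2 difference -0.79 ± 0.25, adjusted p = 0.0116, lost without mCtx cytoplasm replicate 2 or mESC cytoplasm replicate 3). miR-376a-3p had 47.2, 49.9 and 47.7 RPM in mCtx chromatin and 0 in mESC chromatin (adjusted p = 1.01e-05), and with values under 59.07 RPM set to 0 this call was lost.

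Whether the difference between fractions itself differed was tested as an interaction. The difference between chromatin and cytoplasm was lower in mCtx than in mNPC for 9 entries and higher for none (11.2% of all entries lower), among them miR-410-3p (-1.57 ± 0.29, adjusted p = 0.000443) and miR-381-3p (-1.17 ± 0.37, adjusted p = 0.0367). Both were at 0 in every mNPC library, so that these values equal the mCtx differences. With centred libraries they were 0.037 and 0.430, and with scaling to miRNA entries miR-381-3p was not called (-0.692, adjusted p = 0.23). The count was 14 without mCtx cytoplasm replicate 1, and 5 without any one of the 6 mNPC chromatin and cytoplasm libraries. Against mESC, added after the data had been seen, the mCtx difference between chromatin and cytoplasm was higher for 9 entries and lower for 3 (22.3% and 20.1% of all), and that between nucleoplasm and cytoplasm higher for 2 and lower for 2 (6.35% and 13.2%).

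Other small RNAs listed for the imprinted domain were low in the same cell type, the snoRNAs mainly by comparison of chromatin. A list of 22 other miRNA entries upstream of the cluster on chromosome 12 summed to between 21229 and 60774 RPM in mCtx libraries, 0 and 133 RPM in mNPC libraries and 9274 and 44879 RPM in mESC libraries. Of the 19 tested, 14, 17 and 16 were higher in mCtx than in mNPC in chromatin, nucleoplasm and cytoplasm, and none was lower, beside 16%, 23.5% and 21.5% of all entries higher. The 12 snoRNA entries of the domain, small guide RNAs of the nucleus, summed to between 2893 and 3482 RPM in mCtx chromatin, 0 RPM in every mNPC library and 1570 to 4612 RPM in mESC chromatin. Of the 9 tested, 7 were higher in mCtx chromatin than in mNPC chromatin and none was lower, beside the same 16% of all entries. In both lists an entry at 0 in mNPC could not be lower in mCtx.

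The balance between the cluster and the upstream miRNAs differed between the cell types that have them. The cluster's sum divided by that of the upstream miRNAs was 0.687 to 0.899 in the 9 mCtx libraries and 1.37 to 1.72 in the 9 mESC libraries. These ranges did not overlap, and no test was made of this ratio.

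Outside the cluster, the 5 entries whose log2(RPM + 1) ran most like the mean of the 41 tested entries over the 27 libraries were miR-434-5p (Pearson's r of 0.959), miR-143-3p (0.958), miR-337-5p (0.957), miR-136-3p (0.951) and miR-431-5p (0.95). All but miR-143-3p lie in the same imprinted domain. These values describe 27 libraries that fall into 3 cell types and share their scaling.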

How the data were processed

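Small RNA (under 200 nt, rRNA depleted, libraries of 120 to 160 bp read as single reads of 100 bp, per the labels' protocols) was measured in 27 libraries of 9 groups, 3 each. The authors deposited one table of RPM values (reads per 1000000 reads) per annotated small RNA and library. Aligner, counting rule and build: not given in the sources used here. The file's starts count from 0, and adding 1 gave the RefSeq start on GRCm38 for all 42 entries matched. All 27 columns were mapped to samples by name.

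Entries were compared on the log2(RPM + 1) scale by limma 3.58.1 (R 4.3.3) with 9 group means, intensity trend and robust variances (18 residual degrees of freedom), over the 851 entries that reached 1 RPM in 3 libraries or more. Within-library shares were compared by exact permutation. The alternatives were a pseudocount of 10, no filter, a filter at 60 RPM, scaling to miRNA entries, centring, a common floor of 59.07 RPM, a replicate block, leaving out each library and, added later, the 18 mCtx and mESC libraries alone. The fit was tested on simulated data in which 200 of 851 entries were changed in mCtx cytoplasm. It recovered 33% of changes of 2 and 58% of changes of 4 on the log2 scale. Of its calls in this simulated comparison of mCtx chromatin with mCtx cytoplasm, 4.2% were of unchanged entries. An entry that was not called may thus still differ. Whether these rates hold for groups wholly under the lowest listed value, or for groups of unequal spread, was not tested. Many of the calls reported here involve such groups, so the rates are not error rates for them. Python 3.11.15 with numpy 2.4.6, pandas 2.3.3 and matplotlib 3.10.9 made the tables and figures.

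The members and lists were chosen with earlier results of these data known. Entries given by library were the 12 with the highest mean RPM, the 5 called entries with the largest rise and the 5 with the largest fall of a comparison, and members best known from neurons or stem cells; others are given by count. Replicate numbers were not taken to pair the libraries, since the labels do not say whether fractions of one number share a culture.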

Additional observations from a re-analysis of the deposited data

Results flagged for a closer look

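Between mCtx and mESC the chromatin to cytoplasm difference was unequal, by limma's interaction term at an adjusted p under 0.05, for 12 of 41 entries, beside 42.4% of all entries and 40.7% of miRNA entries. All interaction values are mCtx minus mESC on the log2(RPM + 1) scale. For 4 of them every library of both cell types was above 0 in both fractions: the values were 1.78 for miR-380-3p, 1.98 for miR-666-5p, 2.04 for miR-376b-3p and 1.76 for miR-134-5p. With scaling to miRNA entries none of the 4 was called, with 0.541 (adjusted p = 0.536) for miR-380-3p, 0.738 (0.385) for miR-666-5p, 0.791 (0.174) for miR-376b-3p and 0.516 (0.379) for miR-134-5p. miR-380-3p was also lost in the fit of the 18 mCtx and mESC libraries (adjusted p = 0.07) and without any one of mCtx chromatin replicate 1, mCtx cytoplasm replicate 1, mESC chromatin replicate 2 and mESC cytoplasm replicates 2 and 3. miR-666-5p was lost with the common floor (adjusted p = 0.0588). miR-376b-3p had 189, 122 and 161 RPM in mCtx chromatin against 87.6, 213 and 206 RPM in mCtx cytoplasm, and 225, 146.1 and 268 RPM in mESC chromatin against 676, 983 and 960 RPM in mESC cytoplasm.

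The other 8 values rest on a group with libraries at 0, and their size depends on the pseudocount. They were 8.78 for miR-376a-3p, 7.17 for miR-377-3p, 4.54 for miR-1193-3p, 3.06 for miR-679-5p and 3.10 for miR-382-5p, and, in the other direction, -4.77 for miR-411-3p, -3.41 for miR-412-5p and -2.76 for miR-668-3p. With the common floor miR-376a-3p (4.607, adjusted p = 0.0778) and miR-411-3p (-1.011, adjusted p = 0.573) were not called. In the 18-library fit miR-382-5p (adjusted p = 0.105), miR-412-5p (0.0682) and miR-668-3p (0.0752) were not called by limma, and each was also lost without mCtx cytoplasm replicate 2, the last pair without mCtx cytoplasm replicate 3 as well. The call of miR-382-5p was lost too with no filter, with centring and in most fits without 1 library, and it was -1.993 with each hairpin summed with its arms. In the case of miR-377-3p all mESC chromatin libraries were at 0, and mCtx chromatin held 70.3 to 90.6 RPM. The lowest listed value of these mESC libraries was 45.2 to 54.8 RPM, so the size of this interaction is not known.

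The difference between nucleoplasm and cytoplasm differed for 4 of 41 entries, beside 19.5% of all entries and 9.09% of miRNA entries. It was 5.00 for miR-1197-3p, 4.14 for miR-544-3p and -4.84 for miR-376b-5p (adjusted p = 0.078 with centred libraries), each with groups at 0. For miR-410-3p, which was above 0 in all libraries of both cell types, it was -0.95. It was 0.262 with centred libraries, and the call was lost in the 18-library fit (adjusted p = 0.0522) and without any one of mCtx nucleoplasm replicate 1, mCtx cytoplasm replicate 1, mESC nucleoplasm replicate 2 and mESC cytoplasm replicate 1. In that entry mCtx cytoplasm replicate 1 had 25001 RPM, against 14925 and 15583 RPM in the other two.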

How the results depend on the processing

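The direction of the cluster against mNPC was the same in mCtx and in mESC under every scaling, filter and floor tried. For all entries but miR-411-5p and miR-541-5p it could not change. They were at 0 in every mNPC library, and a 0 stays at 0 under each of these settings. Counts of called entries that moved by over 1.5 times were as follows. With the common floor of 59.07 RPM, 17 entries were called for mCtx against mNPC in nucleoplasm and 15 in cytoplasm, 6 for chromatin against cytoplasm and 6 for chromatin against nucleoplasm in mCtx, 0 for nucleoplasm against cytoplasm in mESC, 4 in the interaction of mCtx with mNPC and 2 in the nucleoplasm interaction of mCtx with mESC. The filter at 60 RPM, which left 29 entries of the cluster, gave 5 for mCtx nucleoplasm against cytoplasm, 13 for mCtx chromatin against nucleoplasm, 0 for mESC nucleoplasm against cytoplasm, and 1 in that nucleoplasm interaction. Scaling to miRNA entries gave 13 and 17 for mESC chromatin against cytoplasm and nucleoplasm, and 5 in the interaction with mNPC. Centring gave 18 for mCtx nucleoplasm against cytoplasm and 8 in the nucleoplasm interaction. The 18 mCtx and mESC libraries alone gave 4 for mCtx and 1 for mESC nucleoplasm against cytoplasm. Causes other than the fewer entries tested or listed were not tested.

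Leaving out 1 library at a time gave between 4 and 10 calls for mCtx nucleoplasm against cytoplasm, 0 to 1 for mNPC chromatin against cytoplasm and against nucleoplasm (the 1 without mNPC chromatin replicate 1 or, for cytoplasm, mNPC cytoplasm replicate 3), and 5 to 14 in the interaction with mNPC. It gave 17 to 20, 33 to 36 and 25 to 31 for mCtx against mNPC in chromatin, nucleoplasm and cytoplasm, and 14 to 18, 17 to 23 and 15 to 22 for mCtx against mESC.

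Of the 725 differences of single entries, 137 changed sign under at least 1 alternative, leaving out a library included. Of these, 23 were called as reported and 12 only under the alternative, and the values of both kinds follow; the other changes of sign were between values not called. With scaling to miRNA entries, mCtx against mESC in chromatin became -0.142 for miR-666-5p, -0.644 for miR-381-3p and -0.045 for miR-410-3p. For mESC chromatin against cytoplasm and nucleoplasm it gave 0.437 and 0.416 for miR-758-3p, 0.785 and 0.843 for miR-300-3p, and 0.395 and 0.374 for miR-134-5p, and 0.253 against nucleoplasm for miR-666-5p. With centring, mCtx against mESC became 0.154 for miR-380-3p, 0.044 for miR-300-3p and 0.564 for miR-381-3p in nucleoplasm, and 0.171 for miR-300-3p in chromatin. For mCtx chromatin against cytoplasm it gave 0.952 for miR-300-3p, 0.430 for miR-381-3p and 0.037 for miR-410-3p, with 0.430 and 0.037 for the last pair in the interaction with mNPC. For mCtx nucleoplasm against cytoplasm it gave 0.471 for miR-381-3p and 0.365 for miR-410-3p, 0.262 for miR-410-3p in the nucleoplasm interaction, and 0.035 for miR-300-3p in mESC chromatin against nucleoplasm. With hairpin entries summed with their arms, miR-382 gave -1.993 in the chromatin interaction with mESC. Differences called only under the alternative, with the opposite sign, were these. With centring, mCtx chromatin against cytoplasm gave 1.292 for miR-380-3p, 1.166 for miR-758-3p and 1.576 for miR-376b-3p, and the interaction with mNPC 1.576 for miR-376b-3p and 0.952 for miR-300-3p. Centring also gave 0.789 for miR-300-3p in mCtx nucleoplasm against cytoplasm and 0.753 for miR-377-3p in mCtx against mESC nucleoplasm. Scaling to miRNA entries gave -1.343 for miR-380-3p in mCtx against mESC chromatin, and -0.953 for miR-300-3p and -0.806 for miR-410-3p in the chromatin interaction with mESC. The common floor gave 1.386 for miR-543-3p in that interaction. The mir-377 hairpin summed with both arms gave -0.874 in mCtx against mESC nucleoplasm, opposite in sign to miR-377-5p alone. Most of that sum was miR-377-3p, with means of 91.0 and 130.7 RPM, against 7.9 and 11.8 RPM of miR-377-5p. The cause was not tested.

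With the replicate number as a block, 22 entries were called for mCtx and 23 for mESC chromatin against cytoplasm, and 36 for mCtx against mNPC in nucleoplasm, as without it, and 10 in place of 8 for mCtx nucleoplasm against cytoplasm. Same-numbered libraries of a cell type had deviations that correlated over 0.1 in 8 of 27 pairs of fractions (-0.12 to 0.187), and in 0 of 27 pairs across cell types. In 16 of the 27 pairs of fractions the same-numbered library was the best match, beside 12 of the 27 pairs across cell types. This is at most a weak hint, which the labels neither give nor deny, and the numbers were not used as pairs. The 13 within-cluster share results kept their side of the threshold without any one library and with the common floor. Depth limits mostly the low entries, which mNPC libraries could not list under 22.49 RPM.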
